A study of Arabidopsis thaliana with 6 samples.

Results

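Replicate B of the root RNA-seq experiment was a pair of libraries, 1 of wild type and 1 of 35S:NPC48, out of 6 libraries in the series. It was set against the other 4 libraries, replicates A and D of both genotypes, with genotype as a covariate. B was chosen by its expression values, namely the high transcripts of genes known to be induced by phosphate shortage, so the differences of B from A and D are given as a description with standard errors and no test. What could be tested was whether the B difference differed between the genotypes, and how far D differed from A. Wild type was Arabidopsis thaliana accession Col-0. In 35S:NPC48, the long noncoding RNA NPC48 is expressed from 35S, a strong promoter of cauliflower mosaic virus that is active in most plant cells. The labels give an ecotype for wild type alone and do not say how many 35S:NPC48 lines were used. All 6 libraries came from roots at Boyes stage 1.0, untreated and grown on MS/10 medium that held 500 µM phosphate, with days of 16 h at 24 °C, nights at 21 °C and a humidity of 33%. The letters A, B and D stand for replicates 1, 2 and 3 of the labels, which do not say whether replicates were separate cultures.

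Plants short of phosphate switch on a broad programme in their roots. The transcription factor PHR1 binds a promoter element called P1BS and raises genes for phosphate uptake, for enzymes that free phosphate from organic compounds, and for enzymes that replace phospholipids by galactolipids and sulfolipids. Root hairs grow longer and flavonoids accumulate. Roots also balance phosphate against copper, iron, nitrate and sulfate, and each of these nutrients has its own set of responsive genes.

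Total counts were 21232247 and 23830604 in wild type A and D, 9479418 and 20120659 in 35S:NPC48 A and D, and 21055370 and 20789863 in the B libraries of wild type and 35S:NPC48. The shallow library, 35S:NPC48 A, belongs to the side compared with B. Of 29613 gene IDs in the files, 19608 had enough counts to be used. Root markers were present in every library. Summed over the list, endodermis markers stood between 1047 and 1779 CPM (counts scaled to a common library size), with 0 of 11 markers at 0 counts in any library. Photosynthesis genes, markers of shoot tissue, summed to 114 and 193 CPM in the B libraries of wild type and 35S:NPC48 and to between 160 and 362 CPM in the other 4. Roots are a mixture of cell types, so fewer cells of a type and less RNA per cell cannot be told apart in any value below.

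A gene was counted as higher in B when its fitted log2 difference, B minus A and D, was at least 1 and both B libraries lay above all 4 others in CPM. By this rule 833 of 19608 genes were higher in B, which is 4.25% of the genes tested. The mirror rule gave 582 genes lower in B, or 2.97%. Because B was selected on such differences, nothing is read from these shares, and they serve as the background for the lists of genes below. The differences were large, with 217 genes higher and 111 lower by at least 4-fold, and 40 higher and 12 lower by at least 16-fold. Just inside the limit lay AHP1 with a log2 difference of 1.0012 and PSY1 with -1.0001, and just outside it XTH20 with 0.9996 and CIPK7 with -0.9993. Regardless of size, both B libraries lay above all 4 others in 4222 of 19608 genes and below them in 4134. Statements below that B was highest, lowest or did not overlap restate the rule for genes that met it.

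The genes higher in B took up 5.88% and 5.69% of the counts in the B libraries of wild type and 35S:NPC48, and between 1.44% and 1.64% in the other 4. The genes lower in B took up 1.64% and 1.79% of the counts in the B libraries of wild type and 35S:NPC48, and between 4.59% and 5.26% in the other 4. The median log2 difference over all 19608 genes was -0.01. The median exon length was 1594 bases for the genes higher in B, 1504 bases for those lower and 1775 bases for all genes. Genes other than protein-coding ones were more frequent among those lower in B, where 532 of 582 were protein-coding (91.4%), against 817 of 833 (98.1%) among those higher and 97.3% of all.

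The other replicates differed less from each other, which is partly set by the choice of B as the replicate that stood apart. By the same 2-fold and no-overlap rule, applied to the 4 libraries of A and D, 208 of 19625 genes were higher in D than in A (1.06%) and 77 were lower (0.392%). With 2 libraries against 2, that rule is easier to meet than with 2 against 4. The median size of the log2 difference was 0.28 for B and 0.18 for D against A, and the 95th percentiles were 1.26 and 0.71. In edgeR's quasi-likelihood test of D against A, 0 of 19625 genes passed a Benjamini-Hochberg adjusted p under 0.05 (0%), with 1693 at an unadjusted p under 0.05. DESeq2 called 39, and edgeR with DESeq2's size factors called 188. A fit of genotype and replicate to 4 libraries leaves little to estimate the spread from, so 0 calls do not show that A and D are alike.

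The difference was also computed in each genotype alone, over genes that the rule had chosen with both B libraries. By that choice the genotypes move the same way, so these values describe the chosen genes only. The median log2 difference of the genes higher in B was 1.53 in wild type alone and 1.51 in 35S:NPC48 alone, and that of the genes lower was -1.42 and -1.39. At least 2-fold differences within each genotype were seen for 615 of the 833 higher genes and 415 of the 582 lower genes. Whether the B difference depended on genotype was tested as an interaction in edgeR, and 0 of 19608 genes passed (0%), with 172 at an unadjusted p under 0.05. Limma-voom called 0 and DESeq2 called 1, AT3G45160. The interaction call changed with single libraries: without wild type A edgeR called 14 genes, without wild type D it called 1 (MRN1), without 35S:NPC48 A it called 4 (RCI2B, AT3G25930, AT3G00880 and AT5G02575), and without 35S:NPC48 D it called 0.

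**Figure D1:**
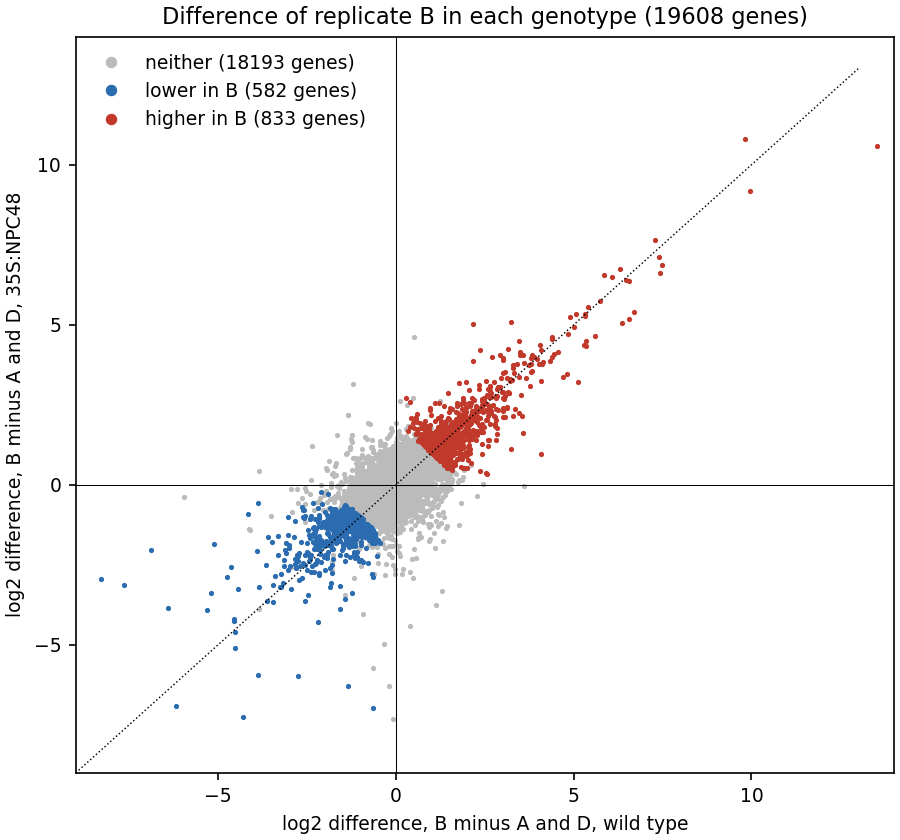
Log2 difference of replicate B from A and D in wild type (x axis) and in 35S:NPC48 (y axis) for each of 19608 genes, with the 833 genes higher in B in red, the 582 lower in blue and the dotted line marking equal differences. Red genes lie at upper right and blue genes at lower left, as the rule sets, with PEPC1 (AT1G17710) beyond 10 on the log2 scale in both genotypes.

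The 6 genes with the smallest p in the interaction test included 3 of the methionine chain-elongation pathway, which supplies aliphatic glucosinolates. MAM1 (AT5G23010), the methylthioalkylmalate synthase gene, stood at 22.4, 29.8, 9.06 and 11.01 CPM in A and D (in the order wild type A, wild type D, 35S:NPC48 A and 35S:NPC48 D, which is kept throughout) and 39.4 and 46.5 CPM in B (wild type, then 35S:NPC48). IPMI2 (AT2G43100), an isopropylmalate isomerase gene, stood at 27.6, 43.8, 15.8 and 15.2 CPM in A and D and 31.6 and 46.2 CPM in B. For both genes the A and D libraries of 35S:NPC48 were lower than those of wild type, while the B library of 35S:NPC48 was above that of wild type. The interaction, as a log2 difference of 35S:NPC48 minus wild type, was 1.61 ± 0.36 for MAM1, 1.75 ± 0.39 for IPMI2 and 1.28 ± 0.30 for IMS2, a 2-isopropylmalate synthase gene. IRT1, the main iron uptake transporter of the root, had an interaction of 1.21 ± 0.30, with 35.6 and 118 CPM in B. The other genes were AT3G45160 with 1.84 ± 0.30 and the noncoding AT1G15405 with 3.52 ± 0.76. The edgeR adjusted p was 1 for each of the 6 genes. MAM1 was also higher in B by the rule, with a log2 difference of 1.42 ± 0.30 that was 0.60 without 35S:NPC48 B.

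Among the genes that passed the filter on low counts, PEPC1, OCT1 (AT1G73220) and AT1G73010, which are not on the classic phosphate list, were among the 12 largest differences. That list holds 52 chosen genes, and other genes that respond to phosphate may lie outside it. Genes outside the list are therefore not independent of how B was chosen. The filter asks for counts in at least 3 libraries, so genes read in the 2 B libraries alone are not ranked. PEPC1, annotated as a phosphatase and distinct from phosphoenolpyruvate carboxylase, stood at 0.0445, 0.0842, 1.39 and 0 CPM in A and D and 848 and 729 CPM in B. OCT1, an organic cation and carnitine transporter, stood at 0.49, 0.337, 0.32 and 0.05 CPM in A and D and 381 and 256 CPM in B. AT1G73010, inorganic pyrophosphatase 1, stood at 3.61, 3.201, 4.37 and 5.35 CPM in A and D and 613 and 581 CPM in B. In each of the 3 genes both B libraries were high, the other 4 were low, and the groups did not overlap, as the rule asks. The log2 differences, B minus A and D, were 11.77 ± 0.55 (SE) for PEPC1, 10.09 ± 0.24 for OCT1 and 7.195 ± 0.18 for AT1G73010. The values of PEPC1 and OCT1 rested on few counts in A and D, for which the standard errors are rough. The log2 difference of PEPC1 was 13.96 without 35S:NPC48 A and 10.58 without wild type B, and that of OCT1 was 10.79 without wild type B.

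AT5G20790, of unknown function, stood at 3.12, 2.74, 2.24 and 2.05 CPM in A and D and 455 and 426 CPM in B. ChiC (AT4G19810), a chitinase, stood at 2.27, 4.76, 3.94 and 2.85 CPM in A and D and 316 and 276 CPM in B. PLL3, a protein phosphatase of the POLTERGEIST-like family, stood at 0.45 to 0.758 CPM in A and D and 51.96 and 55.9 CPM in B. The B values of these genes were alike in both genotypes. They were less alike for AT4G37220, a protein of the cold acclimation WCOR413 family, with 74.4 and 29.7 CPM in B, and for AT1G55230 with 44.6 and 19.4 CPM. AT3G52720, an alpha carbonic anhydrase, was the other way round with 10.4 and 26.7 CPM in B. The serine carboxypeptidase-like gene scpl22, the PQ-loop protein gene AT4G36850 and AT1G23110 completed the 12 largest, with log2 differences of 6.09, 6.07 and 5.299. Leaving out 1 library moved these differences most for AT4G37220, to 5.19 without wild type B, AT1G55230, to 5.06 without wild type B, scpl22, to 6.77 without wild type D, and AT4G36850, to 5.38 without wild type B. Of the classic phosphate genes, which were part of how B was singled out, 27 of 36 tested were higher and 1 was lower. The lower gene was PHO2 (AT2G33770), a ubiquitin-conjugating enzyme that limits phosphate uptake, at 423, 295, 538 and 345 CPM in A and D and 167 and 164 CPM in B.

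**Figure D2:**
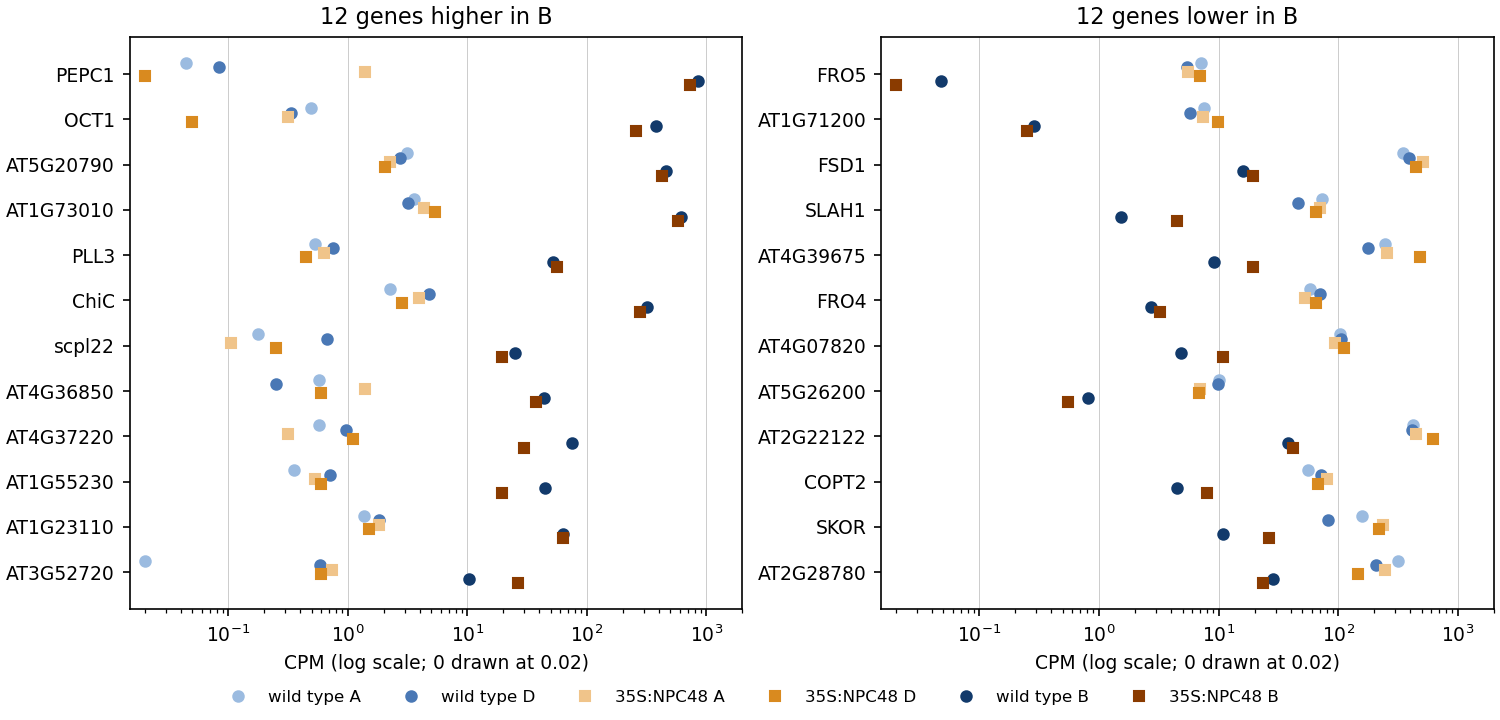
CPM in each of the 6 libraries (log axis, with 0 drawn at 0.02) for the 12 genes higher and the 12 genes lower in B with the largest log2 differences outside the classic phosphate genes. Circles are wild type and squares 35S:NPC48, and the dark symbols of B are separated from the light symbols of A and D in every row, as the rule sets.

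The letters upstream of these genes were read from the RefSeq assembly TAIR10.1, since the deposited files hold gene IDs without positions. The P1BS element, GNATATNC, reads the same on both strands, with N for any base. In the 250 bases upstream of the annotated gene start it was present for 113 of 830 genes higher in B (13.6%), 29 of 569 genes lower (5.1%) and 1067 of all 19474 genes with a window (5.5%). Without the classic phosphate genes the share among the genes higher in B was 106 of 803 (13.2%), and genes that respond to phosphate may remain among these. In 1000 bases the shares were 30.7% of the genes higher, 19.7% of those lower and 20.4% of all. Shares by size of the difference were counted with the classic phosphate genes, part of how B was singled out, kept in. The share in 250 bases went with the size of the difference. It was 4.7% for log2 differences between -0.5 and 0, 6.7% between 0.5 and 1, 10.2% between 1 and 2, 16.2% between 2 and 3, and 31.2% (25 of 80 genes) over 3.

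**Figure D3:**
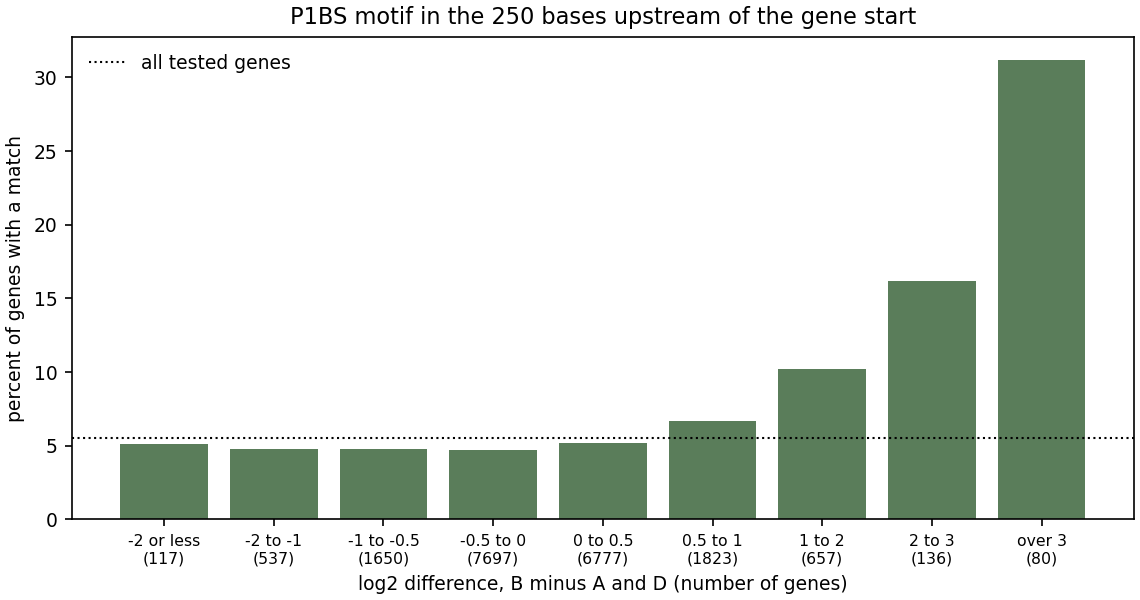
Percent of genes with a P1BS match within 250 bases upstream of the gene start, by log2 difference of B from A and D, with the number of genes under each bar and the dotted line at the 5.5% of all genes tested. Bars below 0 lie between 4.7% and 5.1%, and those above 1 climb from 10.2% to 31.2%. The classic phosphate genes are included.

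Other elements were searched in the same windows. CACGTG, the G-box, was found in 10.7% of the windows of genes higher in B, 4.2% of those lower and 7.1% of all. GTAC, the core bound by the copper regulator SPL7, was found in 34.1%, 36.0% and 34.5%. TTGAC, the core bound by WRKY factors and searched like the others on both strands, was found in 46.4%, 48.3% and 45.4%. A match is a run of letters and not a known binding site, and no test was made of these shares. Of the 12 largest genes higher in B outside the classic phosphate list, 5 had a P1BS match in 250 bases, and of the 12 largest lower in B, 0 did. The windows of the 5 genes are given below to show where the match lies, 5′ to 3′ on the gene's strand and ending at the base before the gene start, with the match in capitals. They are AT1G73010 on the minus strand at chr1:27466349-27466598, ChiC on the minus strand at chr4:10765796-10766045, AT4G36850 on the minus strand at chr4:17356038-17356287, AT4G37220 on the plus strand at chr4:17514792-17515041 and AT1G23110 on the minus strand at chr1:8198332-8198581.
AT1G73010: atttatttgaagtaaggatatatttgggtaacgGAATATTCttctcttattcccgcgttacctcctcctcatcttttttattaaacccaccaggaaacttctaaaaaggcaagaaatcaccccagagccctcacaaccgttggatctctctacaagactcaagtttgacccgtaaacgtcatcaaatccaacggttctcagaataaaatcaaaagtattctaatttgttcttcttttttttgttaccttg
ChiC: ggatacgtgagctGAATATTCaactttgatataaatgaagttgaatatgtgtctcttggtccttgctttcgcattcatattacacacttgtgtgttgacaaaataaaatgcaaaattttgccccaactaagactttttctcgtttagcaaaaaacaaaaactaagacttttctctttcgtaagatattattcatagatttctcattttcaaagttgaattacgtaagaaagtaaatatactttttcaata
AT4G36850: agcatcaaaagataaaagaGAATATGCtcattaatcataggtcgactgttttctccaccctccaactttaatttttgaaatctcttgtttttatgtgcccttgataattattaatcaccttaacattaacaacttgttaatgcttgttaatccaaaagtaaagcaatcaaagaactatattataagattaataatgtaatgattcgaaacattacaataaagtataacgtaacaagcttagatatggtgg
AT4G37220: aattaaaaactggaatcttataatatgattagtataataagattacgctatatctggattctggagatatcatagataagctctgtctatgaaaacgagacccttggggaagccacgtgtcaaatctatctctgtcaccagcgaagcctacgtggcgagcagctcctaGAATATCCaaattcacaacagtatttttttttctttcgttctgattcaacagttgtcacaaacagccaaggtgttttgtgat
AT1G23110: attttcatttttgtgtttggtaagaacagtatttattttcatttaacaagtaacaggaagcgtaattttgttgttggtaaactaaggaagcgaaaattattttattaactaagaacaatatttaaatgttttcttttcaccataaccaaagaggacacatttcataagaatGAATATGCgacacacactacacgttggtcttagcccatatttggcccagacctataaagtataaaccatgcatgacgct
The match began 217 bases before the gene start in AT1G73010, 237 in ChiC and 231 in AT4G36850, but 82 in AT4G37220 and 79 in AT1G23110. None of these 5 windows overlaps another annotated gene.

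The genes lowest in B relative to A and D were led by copper acquisition. FRO4 (AT5G23980) and FRO5, neighbouring ferric reductase oxidase genes whose products reduce copper at the root surface, were nearly absent from B. FRO4 stood at 57.6, 70.8, 52.6 and 65.8 CPM in A and D and 2.75 and 3.26 CPM in B. FRO5 had 483 counts in A and D together and 1 count in B, a ratio of 270.7 with an exact 95% counting interval of 48.4 to 10713.9. This interval covers the counting of pooled reads alone and not the spread between libraries. FRO5 was also chosen by the size of its difference, so the interval is no test of B. FSD1 (AT4G25100), an iron superoxide dismutase known to stand in for the copper enzyme, stood at 351, 388, 508 and 445 CPM in A and D and 15.98 and 19.6 CPM in B. COPT2 (AT3G46900), a high-affinity copper transporter of the root, stood at 56.2, 71.8, 80.7 and 68.05 CPM in A and D and 4.46 and 8.03 CPM in B. The B libraries were low and did not overlap the other 4 in any of these genes. The log2 differences were -4.36 ± 0.20 for FRO4, -4.57 ± 0.16 for FSD1 and -3.5003 ± 0.21 for COPT2.

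Over the list of copper economy genes, 11 of 19 tested members were lower in B and 2 were higher, with a median log2 difference of -1.32. CITF1 and CML1, which the list also names, had no match by symbol in the annotation and are not counted. Their genes may still have been measured under a gene ID or another name. Lower members also included ZIP2, YSL3, the copper chaperone gene CCH, COPT6 and the precursors MIR408 (AT2G47015), MIR398b and MIR398c. MIR408 stood at 3.25, 3.88, 3.303 and 3.45 CPM in A and D and 0.711 and 0.502 CPM in B, low counts in every library. The 2 higher members were ARPN (AT2G02850), plantacyanin, and CSD1 (AT1G08830), a copper and zinc superoxide dismutase. ARPN stood at 13.9, 16.9, 23.5 and 20.8 CPM in A and D and 51.2 and 87.3 CPM in B, and CSD1 at 307, 411, 346 and 341 CPM in A and D and 769 and 886 CPM in B. In Arabidopsis both are known targets of copper-responsive microRNAs, ARPN of miR408 and CSD1 of miR398.

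The 12 largest lower genes also held 6 not counted in the lists of nutrient and transport genes. Lists were matched by name, so genes known here by an ID alone, such as AT1G71200, may still belong to them. The bHLH gene AT1G71200 stood at 7.52, 5.77, 7.35 and 9.96 CPM in A and D and 0.284 and 0.251 CPM in B. AT4G39675, annotated as an uncharacterized protein, stood at 246, 178, 255 and 480.5 CPM in A and D and 9.102 and 19.3 CPM in B. AT4G07820, of the CAP family of cysteine-rich secretory proteins, stood at 103, 105, 93.9 and 112 CPM in A and D and 4.84 and 10.9 CPM in B, a log2 difference of -3.77 ± 0.27 that was -4.42 without 35S:NPC48 B. In each of them both B libraries were the lowest. The others were AT2G22122 with a log2 difference of -3.56 ± 0.19, AT5G26200, of the mitochondrial substrate carrier family, with -3.63 ± 0.25, and AT2G28780, annotated as a p-hydroxybenzoic acid efflux pump subunit, with -3.12 ± 0.26.

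Nitrate-responsive genes were the other large lowered group, with 10 of 26 tested members lower, 0 higher and a median log2 difference of -0.85. HHO1, HHO2, HHO3 and NRG2, also named in that list, had no match by symbol and are not counted. BT1 (AT5G63160), a scaffold protein of nitrate signalling, stood at 344, 338, 274 and 377 CPM in A and D and 36.2 and 47.6 CPM in B. NRT1.1 (AT1G12110), the nitrate transporter and sensor, stood at 1691, 2219.7, 1637 and 1432 CPM in A and D and 719.7 and 561 CPM in B. NIR1 (AT2G15620), nitrite reductase, stood at 582, 826, 554 and 481 CPM in A and D and 274 and 211 CPM in B. Both B libraries lay below all others in each of the 3 genes. The log2 differences were -2.999 ± 0.19 for BT1, -1.45 ± 0.17 for NRT1.1 and -1.33 ± 0.17 for NIR1. BT2, SLAH3, NRT1.5 (AT1G32450), LBD39, NIA1, UPM1 and TGA4 were lower as well, with log2 differences from -2.297 in BT2 to -1.004 in TGA4.

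Of 17 tested sulfur deficiency genes 7 were higher and 0 lower, while the median log2 difference of the list was 0.15. LSU1 (AT3G49580), a small protein gene used as a mark of low sulfur, stood at 0.668, 2.19, 1.39 and 2.85 CPM in A and D and 24.98 and 30.8 CPM in B. LSU2 (AT5G24660) stood at 4.85, 10.6, 9.59 and 11.7 CPM in A and D and 70.3 and 78.3 CPM in B. LSU3, LSU4, the sulfate transporter genes SULTR1;1 and SULTR2;1 and the sulfate reduction enzyme gene APR1 were the other higher members, APR1 with a log2 difference of 1.43 ± 0.17. The LSU genes are near copies of each other in neighbouring pairs, and how reads shared between them were counted is not given in the sources used here.

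Of 25 tested iron acquisition genes 1 was higher (4.0%), IRT2, and 2 were lower (8.0%), beside 4.25% and 2.97% of all genes. BTSL1, BTSL2, IMA1, IMA2, IMA3 and MTP8 of that list had no match by symbol and are not counted. The lower pair were NAS1 (AT5G04950), nicotianamine synthase, at 192, 267, 203 and 194 CPM in A and D and 57.4 and 85.5 CPM in B, and NRAMP1, a manganese and iron uptake transporter, with a log2 difference of -1.14 ± 0.14. Of 7 tested iron storage genes the ferritin gene FER2 was higher, and of 12 tested zinc deficiency genes 0 were higher or lower.

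**Figure D4:**
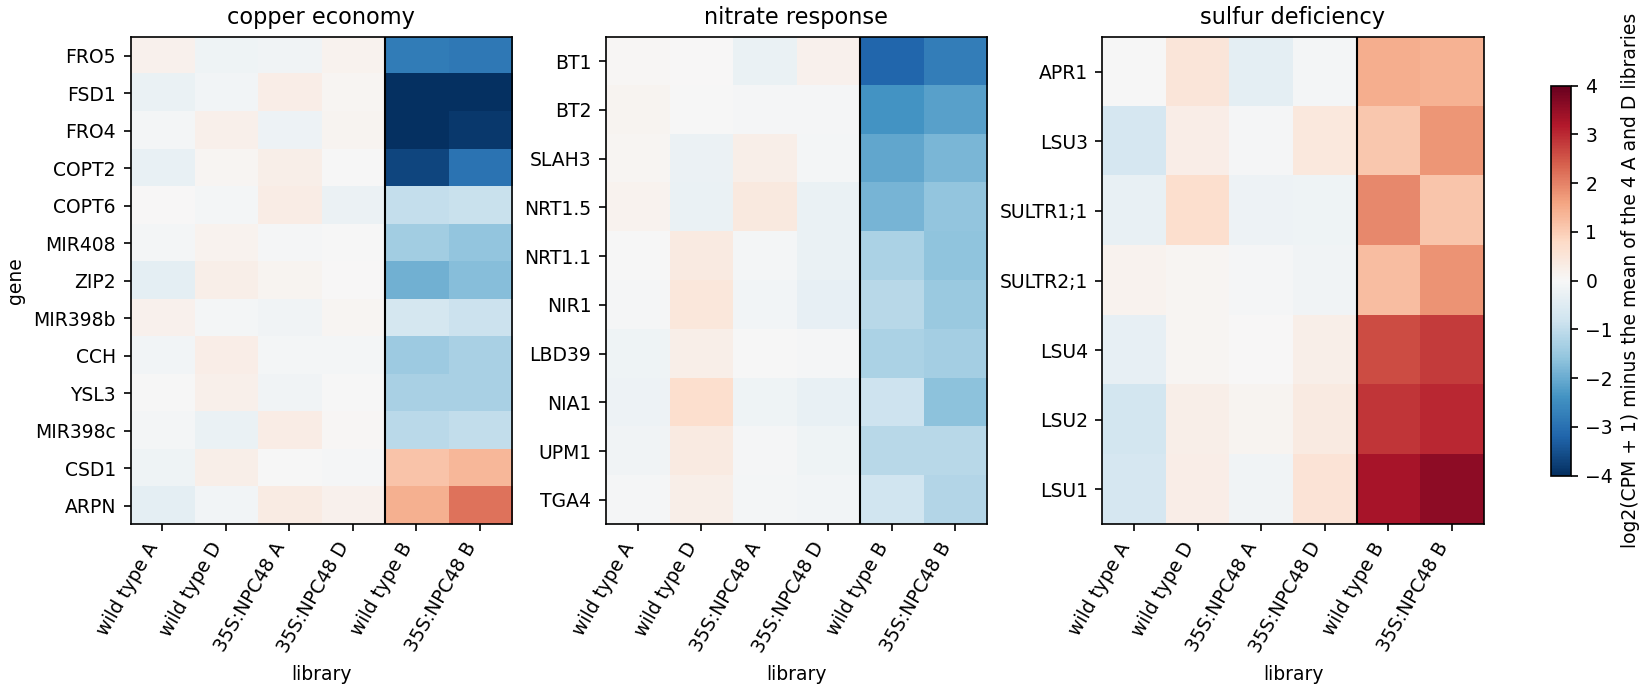
Log2(CPM + 1) minus the mean of the 4 A and D libraries for every member of the copper, nitrate and sulfur lists that met the rule, with 1 row per gene, 1 column per library and the B libraries to the right of the line. Copper and nitrate members are blue in both B columns except ARPN and CSD1, and the 7 sulfur members are red.

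SKOR (AT3G02850), SLAH1 (AT1G62280) and NRT1.5, transporters that act in the passage of ions to the xylem, were lower in B. They were picked after their values were seen. PHO1;H1, a homologue of the phosphate exporter PHO1, was higher with a log2 difference of 2.19 ± 0.17, and PHO1 itself had -0.53 ± 0.21. SKOR, an outward potassium channel of the stele, stood at 157, 82.7, 239 and 218 CPM in A and D and 10.9 and 26.2 CPM in B. SLAH1, an anion channel subunit involved in chloride transfer to the xylem, stood at 73.9, 46.04, 70.3 and 65.8 CPM in A and D and 1.52 and 4.52 CPM in B. NRT1.5, which loads nitrate, stood at 1929.9, 1439, 2305 and 1445 CPM in A and D and 480.4 and 589 CPM in B. In all 3 genes both B libraries were the lowest. SKOR was higher in 35S:NPC48 than in wild type within each replicate. The log2 differences were -3.28 ± 0.27, -4.47 ± 0.34 (-5.296 without 35S:NPC48 B) and -1.74 ± 0.22. SLAH1 and SLAH3 belonged to a list of malate and anion channels and multidrug and toxin carriers, of which 3 of 10 tested were lower and 1 was higher.

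Some other potassium carriers went the other way. HAK5 (AT4G13420), a high-affinity potassium transporter, stood at 0.089, 0.379, 0.746 and 1.05 CPM in A and D and 9.48 and 19.3 CPM in B, a log2 difference of 4.74 ± 0.33. The potassium channel gene KT2/3 and the uptake permease gene KUP9 were higher too. Of 30 tested potassium genes 3 were higher (10.0%) and 1 was lower (3.3%), beside 4.25% and 2.97% of all genes. The list median was -0.04. Aquaporins were lower in 5 of 29 tested members (17.2%) and higher in 1 (3.4%). TIP2;2 (AT4G17340), a water channel of the vacuolar membrane, stood at 1549, 2092, 1769.6 and 1862 CPM in A and D and 617 and 535 CPM in B, and RD28, a plasma membrane channel, had a log2 difference of -1.71 ± 0.28. The higher member was NIP6;1 with 4.31 and 6.73 CPM in B and a log2 difference of 1.18 ± 0.30, which was 0.62 without 35S:NPC48 B.

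Amino acid carriers were higher in 6 (11.3%) and lower in 4 (7.5%) of 53 tested members, beside 4.25% and 2.97% of all genes. UMAMIT14 (AT2G39510) stood at 0.89, 3.41, 1.705 and 2.05 CPM in A and D and 88.8 and 43.8 CPM in B, and UMAMIT38 (AT4G15540) at 12.6, 11.3, 8.31 and 12.9 CPM in A and D and 104 and 109.8 CPM in B. UMAMIT29, of the same exporter family, was lower with a log2 difference of -2.77 ± 0.22. Sugar carriers were lower in 4 (14.8%) and higher in 2 (7.4%) of 27 members. SWEET12 (AT5G23660), which exports sucrose for phloem loading in leaves, stood at 37.3, 10.03, 48.3 and 30.8 CPM in A and D and 3.84 and 7.28 CPM in B, with wild type D closest to B. The polyol carrier gene PMT6 had a log2 difference of -2.72 ± 0.15, and SWEET13, on the higher side, 2.93 ± 0.32.

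Of 93 tested ABC transporter genes 8 were higher (8.6%) and 2 lower (2.2%), beside 4.25% and 2.97% of all genes. ABCB5 had a log2 difference of 2.63 ± 0.36, and ABCC9 was lower, with -4.35 ± 0.66 (-3.37 without wild type B), at 0.0948 and 0.151 CPM in B. HA7 (AT3G60330) was the 1 proton pump gene of 28 that met the rule, at 37.9, 61.8, 33.4 and 47.6 CPM in A and D and 152 and 106 CPM in B. Of 59 calcium transport genes 7 were higher (11.9%) and 3 lower (5.1%), with 11 higher without wild type D and 5 lower without 35S:NPC48 B. ANNAT1 (AT1G35720), annexin 1, stood at 761, 937, 731 and 765 CPM in A and D and 3079 and 3420.0 CPM in B, which made it the gene with the largest difference in its share of all counts, 0.24 percentage points. Sulfate carriers were higher in 3 of 9 members and lower in 1, AST56, with a log2 difference of -2.004 ± 0.20. Of 55 metal transporter genes 8 were lower (14.5%) and 2 higher (3.6%), among the latter YSL8 with 1.14 ± 0.11. Nitrate and peptide transporters had 2 higher (7.7%) and 2 lower (7.7%) of 26, and of 4 ammonium transporters 0 met the rule. No reading is made of shares close to those of all genes.

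Genes for extensins, structural proteins of the cell wall, were among those higher in B. Of 22 tested extensin and proline-rich protein genes 6 were higher (27.3%) and 0 lower, beside 4.25% and 2.97% of all genes. EXT6 (AT2G24980), an extensin, stood at 6.01, 17.1, 6.07 and 9.11 CPM in A and D and 62.3 and 47.7 CPM in B. EXT10 (AT5G06640) stood at 15.05, 37.4, 17.3 and 26.1 CPM in A and D and 132 and 107 CPM in B. Both B libraries were highest, and wild type D was the highest of the other 4. XTH14 (AT4G25820), a xyloglucan endotransglucosylase of root hairs, stood at 42.9, 93.4, 49.2 and 63.8 CPM in A and D and 200.4 and 167 CPM in B, and 5 of 26 tested genes of its family were higher and 0 lower. Without wild type D 9 genes of the XTH family met the rule, and without 35S:NPC48 D 8 did. The log2 differences were 2.52 ± 0.31 for EXT6, 2.31 ± 0.29 for EXT10 and 1.56 ± 0.25 for XTH14.

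Of 41 arabinogalactan protein genes 3 were higher (7.3%) and 0 lower, beside 4.25% and 2.97% of all genes. The higher genes were led by FLA6 with 2.91 ± 0.42 (2.14 without wild type B) and AGP30 with 2.302 ± 0.14. Expansin genes were higher in 3 and lower in 2 of 20 members, with EXPB3 at 1.42 ± 0.13 and EXPA8 at -1.498 ± 0.22. Class III peroxidase genes were higher in 4 (7.7%) and lower in 4 (7.7%) of 52. AT3G49960 stood at 17.1, 41.2, 16.3 and 30.6 CPM in A and D and 97.7 and 98.3 CPM in B, while AT2G41480 stood at 77.1, 80.8, 69.6 and 73.7 CPM in A and D and 30.6 and 35.4 CPM in B. Of 51 synthases of cellulose, hemicellulose and callose 1 was higher (2.0%) and 2 were lower (3.9%), among them CALS1, a callose synthase, with -1.22 ± 0.15. Pectin enzymes had 8 higher (7.3%) and 3 lower (2.7%) of 110 and laccases 1 each of 16 (6.2%). No reading is made of shares close to those of all genes.

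Root hair markers as a list were also higher. The list itself holds wall genes, among them PRP3, EXPA7 and EXPA18, so its likeness to the wall lists is partly set by shared members. Their sum was 1839 and 1549 CPM in B and 687, 1091, 742 and 905 CPM in A and D. Of 27 tested markers, 10 were higher and 0 lower, with a median log2 difference of 0.88, and 0 were at 0 counts in any library. Without wild type A 5 were higher. The median of the list was also above 0 for D minus A, at 0.52. RSL2 (AT4G33880), a transcription factor of hair growth, stood at 32.8, 57.3, 41.1 and 45.4 CPM in A and D and 102 and 93.1 CPM in B, and ETC1, a regulator of hair cell patterning, had a log2 difference of 2.502 ± 0.37. The part of root hair number or length in the wall gene values was not tested.

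In metabolism, many enzymes that spare or free phosphate were higher. Of 26 tested membrane lipid remodelling genes 15 were higher (57.7%) and 0 lower, beside 4.25% and 2.97% of all genes. Of 18 purple acid phosphatase genes 7 were higher (38.9%) and 0 lower, and of 8 soluble pyrophosphatase genes 4 (50.0%) and 0. The number of purple acid phosphatase genes higher in B was 12 when any of the 4 A and D libraries was left out. Many of these genes overlap with the classic phosphate genes by which B was chosen. PPa4 (AT3G53620), a pyrophosphatase outside that list, stood at 44.3, 48.99, 40.9 and 49.3 CPM in A and D and 190.4 and 169 CPM in B. PAP24, a purple acid phosphatase, had a log2 difference of 3.94 ± 0.29. Of 49 haloacid dehalogenase phosphatase genes 4 were higher (8.2%) and 1 lower (2.0%). AT2G38740 stood at 157 and 146 CPM in B and 25.1 to 41.4 CPM in the others.

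Of 37 tested genes of glycolysis and its bypass 6 were higher (16.2%) and 1 was lower (2.7%), beside 4.25% and 2.97% of all genes. PPC1 (AT1G53310), a phosphoenolpyruvate carboxylase, stood at 297, 305, 277 and 258 CPM in A and D and 1044 and 939.6 CPM in B. PPC2 (AT2G42600) stood at 39.98, 39.6, 48.5 and 35.8 CPM in A and D and 177 and 187 CPM in B. SUS4, a sucrose synthase, had a log2 difference of 1.97 ± 0.18. The B libraries were highest for all 3. Starch and trehalose genes had 6 higher (12.8%) and 1 lower (2.1%) of 47. SEX4, a phosphatase of starch breakdown, was at 1.67 ± 0.19 and APL1, of starch synthesis, at 1.34 ± 0.15. Of 18 genes of the organic acid cycle 0 were higher and 2 lower, among them MLS, malate synthase, with -1.57 ± 0.30.

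Flavonoid genes were higher in 9 of 16 tested members (56.2%) with 0 lower and a median log2 difference of 1.32. The files held 28 members, and those not tested did not pass the filter on low counts. With no filter the median was 0.82. TT4 (AT5G13930), chalcone synthase, stood at 37.8, 84.1, 24.4 and 37.9 CPM in A and D and 462 and 523 CPM in B, and TT5 (AT3G55120), chalcone isomerase, at 2.404, 5.05, 2.88 and 4.65 CPM in A and D and 34.9 and 36.8 CPM in B. In the glucosyltransferase family 5 of 45 were higher (11.1%) and 1 lower (2.2%), beside 4.25% and 2.97% of all genes. UGT84A2 (AT3G21560), of that family, stood at 16.6, 21.4, 13.4 and 12.01 CPM in A and D and 111 and 120.5 CPM in B. In these 3 genes B exceeded every other library by at least 4-fold in CPM. The log2 difference of TT4 was 3.51 ± 0.33, and 2.93 without 35S:NPC48 B.

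Glucosinolate genes were higher in 8 and lower in 1 of 32 members, and higher in 5 without the 35S:NPC48 B library. CYP79B2 (AT4G39950), which turns tryptophan into the precursor of indole glucosinolates and camalexin, stood at 45.6, 36.7, 32.4 and 22.1 CPM in A and D and 249 and 213 CPM in B. CYP79B3 (AT2G22330), of the same step, stood at 59.96, 47.5, 49.5 and 34.7 CPM in A and D and 151 and 201 CPM in B. CYP71A12 (AT2G30750), which acts on the same intermediate in the synthesis of defence compounds and was counted with the immunity genes, stood at 0.089, 0.969, 1.07 and 0.901 CPM in A and D and 11.5 and 23.3 CPM in B. Both B libraries were highest in all 3, and the log2 differences were 2.79 ± 0.17, 1.89 ± 0.20 and 4.498 ± 0.41. CYP71A12 has a near copy, CYP71A13, and reads shared by both would make its value uncertain.

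Terpene synthases were split, 3 higher (23.1%) and 3 lower (23.1%) of 13, beside 4.25% and 2.97% of all genes. THAS1 (AT5G48010), thalianol synthase, stood at 106, 117, 187 and 229.9 CPM in A and D and 459.7 and 569.9 CPM in B, whereas PEN1 (AT4G15340), another triterpene synthase, stood at 106, 126, 112 and 117 CPM in A and D and 34.5 and 35.7 CPM in B. TPS13, a terpenoid synthase, had a log2 difference of -3.0996 ± 0.29. Cytochrome P450 genes had 16 higher (11.4%) and 13 lower (9.3%) of 140. Glutathione transferases had 6 (13.3%) and 4 (8.9%) of 45, and suberin and cutin enzymes 4 (11.1%) and 1 (2.8%) of 36. Of 9 coumarin genes 0 met the rule. Within the glutathione transferases GSTU20 was higher with 1.903 ± 0.30, and GSTF2 (AT4G02520) was lower, at 445, 608, 609 and 683 CPM in A and D and 133 and 261 CPM in B.

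Of 38 tested abscisic acid genes 8 were higher (21.1%) and 1 lower (2.6%), beside 4.25% and 2.97% of all genes. PYL3, an abscisic acid receptor, had a log2 difference of 3.21 ± 0.34, PYL5, another receptor, -1.12 ± 0.15, and the factor gene ABF2 1.34 ± 0.12. LTI78 (AT5G52310), a stress marker of this hormone, stood at 20.5, 22.4, 15.6 and 11.01 CPM in A and D and 80.2 and 64.4 CPM in B. The median of the abscisic acid list was 0.03. Brassinosteroid genes were lower in 4 of 20 with 0 higher. ROT3 (AT4G36380), a brassinosteroid hydroxylase, stood at 102, 112, 87.2 and 90.3 CPM in A and D and 51.4 and 34.5 CPM in B, and BKI1, an inhibitor of the receptor, and BEE1, a bHLH factor, were lower with -1.54 ± 0.27 and -2.09 ± 0.44.

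Cytokinin genes had 2 higher (4.5%) and 2 lower (4.5%) of 44, beside 4.25% and 2.97% of all genes. No reading is made of shares close to those of all genes. IPT3 (AT3G63110), a cytokinin synthesis enzyme known to respond to nitrate, stood at 12.2, 14.4, 13.96 and 11.2 CPM in A and D and 3.03 and 2.81 CPM in B. LOG7 (AT5G06300), a cytokinin-activating enzyme, stood at 65.7, 70.6, 69.3 and 72.9 CPM in A and D and 172 and 177 CPM in B. Auxin genes had 4 higher (9.3%) and 1 lower (2.3%) of 43. Among them were ARF11, an auxin response factor, with 2.27 ± 0.18, and BRU6, an auxin-conjugating GH3 enzyme, with -1.87 ± 0.21. Aux/IAA genes had 1 higher of 26 (3.8%) and SAUR genes 1 each of 29 (3.4%). Ethylene genes had 1 higher of 20 (5.0%), ACS7 with 1.64 ± 0.24, and gibberellin genes 1 higher of 24 (4.2%). Jasmonate genes had 3 higher of 33 (9.1%), among them VSP1 with 2.03 ± 0.27, or 1.398 without wild type B. Of 13 strigolactone genes 0 met the rule. Signalling peptides were lower in 7 (10.8%) and higher in 5 (7.7%) of 65, and lower in 11 without wild type B. CLE2 (AT4G18510) stood at 23.6, 22.1, 24.3 and 26.9 CPM in A and D and 4.36 and 3.91 CPM in B, and PSK4 (AT3G49780), a phytosulfokine precursor, at 97.3, 92.5, 109 and 171 CPM in A and D and 29.4 and 46.9 CPM in B.

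Most transcription factor families held members of both directions, beside 4.25% higher and 2.97% lower of all genes. The shares higher and lower were 3.9% and 15.7% of AP2/ERF, 3.8% and 8.9% of MYB, and 6.8% and 5.5% of NAC genes. Nothing is read from shares close to those of all genes. AP2/ERF genes were lower in 8 and higher in 2 of 51, and MYB genes lower in 7 and higher in 3 of 79. Without wild type B 5 AP2/ERF genes were lower, and without 35S:NPC48 D 4 MYB genes were. CRF8 (AT1G71130), a cytokinin response factor, was on the higher side at 9.79, 10.6, 11.5 and 9.91 CPM in A and D and 41.9 and 45.1 CPM in B. RAV1 (AT1G13260) stood at 120.1, 97.5, 115 and 108 CPM in A and D and 45.9 and 44.9 CPM in B. MYB59 (AT5G59780) stood at 522, 361, 629 and 509 CPM in A and D and 163 and 216 CPM in B, and its relative MYB48 had a log2 difference of -1.58 ± 0.21. NAC genes had 5 higher and 4 lower of 73, with NAC047 at 2.48 ± 0.24 and NAC080 at -1.73 ± 0.15. WRKY genes had 5 higher and 4 lower of 54. WRKY45 (AT3G01970), which is known to activate phosphate uptake, stood at 5.88, 5.22, 15.98 and 16.3 CPM in A and D and 18.96 and 40.6 CPM in B, with both 35S:NPC48 values of A and D above those of wild type. For WRKY22, with -2.05 ± 0.74, wild type D stood at 28.6 CPM and the other 3 libraries of A and D at 3.55 to 5.54 CPM, and its log2 difference was -1.15 without wild type D and -0.9997 without wild type B.

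Of 43 tested bHLH genes 4 were higher and 2 lower, bHLH093 (AT5G65640) standing at 36.6, 37.95, 32.1 and 48.3 CPM in A and D and 106 and 114 CPM in B. Homeobox genes had 4 higher and 3 lower of 61, among the latter WOX5, a regulator of the root stem cell niche, with -1.12 ± 0.38. bZIP genes had 2 higher and 3 lower of 48, and LBD genes 1 and 2 of 20. Of 14 tested GARP genes, the family of PHR1, 0 met the rule, and 0 of 31 C2H2 zinc-finger genes did. Factor families were listed by symbol, so members without such a symbol are not counted. In the receptor-like kinases of the CRK and WAK families 5 of 24 were lower and 0 higher, and 8 were lower without 35S:NPC48 A. CRK29 (AT4G21410) stood at 144, 137, 149 and 140.5 CPM in A and D and 57.8 and 57.4 CPM in B. Calcium sensors and their kinases had 7 higher and 2 lower of 81, and heat shock genes 1 and 2 of 46.

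**Figure D5:**
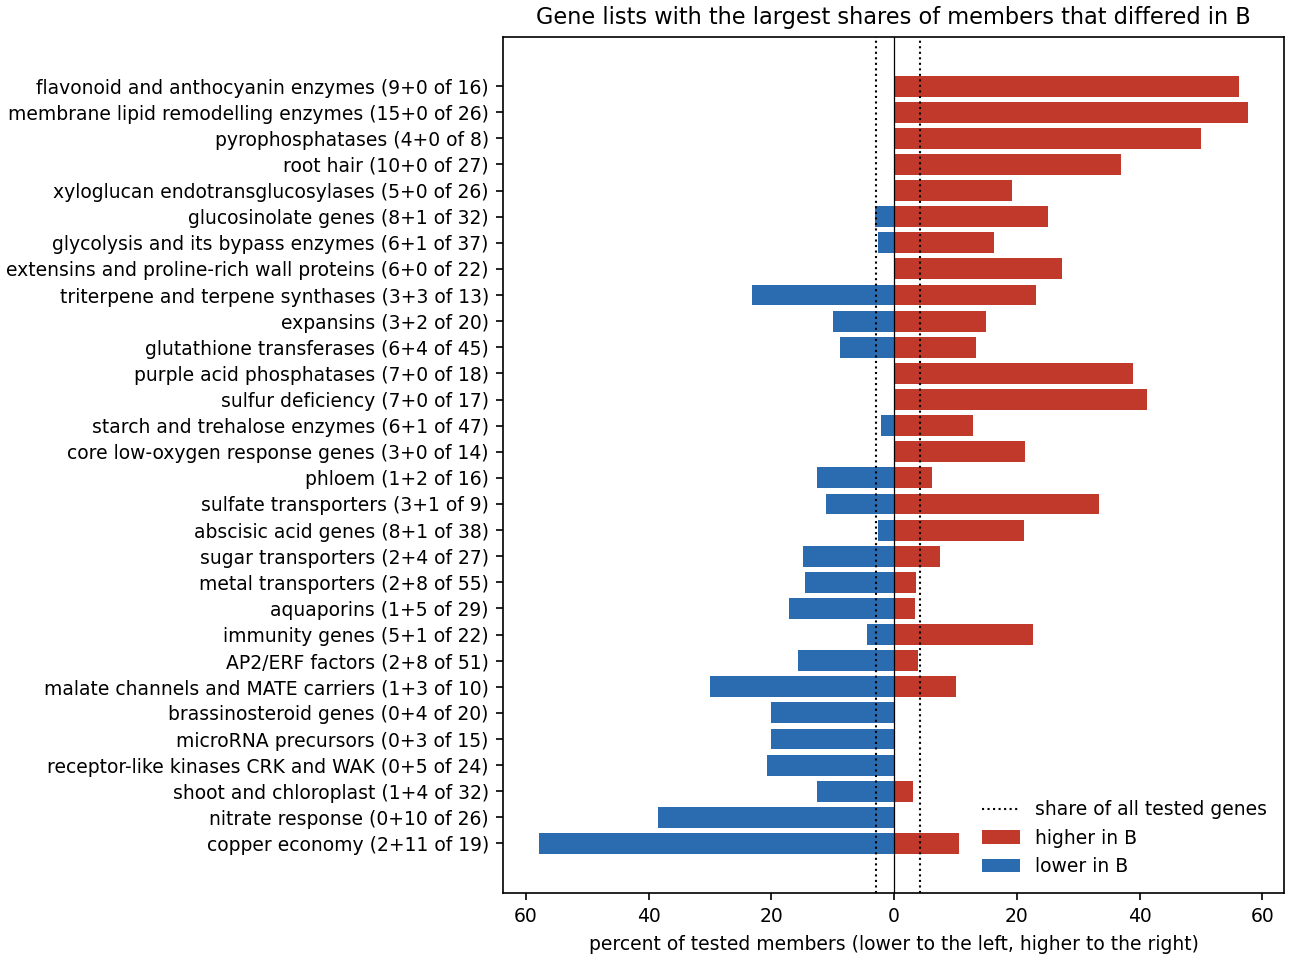
Percent of tested members higher (red, to the right) and lower (blue, to the left) in B for 30 gene lists, drawn where at least 3 members met the rule and at least 12% of members did so in the same direction, without the classic phosphate and SPX lists. Numbers in brackets are members higher plus lower of those tested, and the dotted lines mark the 4.25% and 2.97% of all genes. Every list drawn passes a line, since lists were drawn by their shares, and the lipid list shares genes with the classic phosphate list.

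Lists of growth genes had medians above 0. Of 51 tested cell cycle and DNA replication genes 3 were higher and 0 lower, with a list median of 0.59 against -0.01 over all genes. The number higher was 8 without wild type A and 6 without wild type B. CDKB2;2 (AT1G20930), a mitotic kinase, stood at 16.5, 17.1, 16.8 and 17.5 CPM in A and D and 38.8 and 42.1 CPM in B. The median of 45 histone genes was 0.48, and that of 275 ribosomal protein genes 0.29 with 1 higher and 2 lower. Between D and A the medians of the cell cycle, histone and ribosomal lists were -0.17, -0.01 and -0.15.

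A chitinase gene and a germin-like gene were higher in B, while the immunity list had a median below 0. HCHIB (AT3G12500), a basic chitinase, stood at 49.1, 68.6, 58.4 and 61.3 CPM in A and D and 647 and 615 CPM in B. GLP9 (AT4G14630), a germin-like protein, stood at 7.66, 14.7, 5.86 and 6.65 CPM in A and D and 127 and 112 CPM in B. Neither overlapped the other libraries, and the log2 differences were 3.41 ± 0.15 and 3.81 ± 0.23. Of 22 tested immunity genes 5 were higher and 1 lower, 13 had a log2 difference below 0, and the list median was -0.22. Low-oxygen genes had 3 higher of 14, among them ADH1, alcohol dehydrogenase, with 1.13 ± 0.23, and clock genes 2 higher of 20, CCA1 (AT2G46830) and LHY, both with low counts. CCA1 stood at 1.07, 0.674, 0.32 and 0.6 CPM in A and D and 2.42 and 2.11 CPM in B.

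Among the markers of other cell types, CASP5 (AT5G15290) of the Casparian strip was lower, at 14.3, 13.2, 22.2 and 36.4 CPM in A and D and 5.07 and 11.1 CPM in B, and was the 1 endodermis marker of 11 that met the rule. All 11 had a log2 difference below 0, with a median of -0.31, which was -0.14 without wild type D. The list median of D minus A was 0.41. The list summed to 1095 and 1181 CPM in B (wild type, then 35S:NPC48), 1047 and 1265 CPM in A, and 1779 and 1630 CPM in D. B thus lay within the range of A, with D above both. Of 15 suberin, 17 xylem and 9 root cap markers 0 met it, and of 16 phloem markers 1 was higher and 2 were lower. The root cap marker AT3G57270 had 0 counts in every library. Photosynthesis genes were lower in 4 and higher in 1 of 32, with a median log2 difference of -0.80. The number lower was 10 without wild type A, 17 without 35S:NPC48 B and 7 without 35S:NPC48 D. LHB1B2 (AT2G34420), a light-harvesting protein gene, stood at 9.13, 26.7, 29.9 and 16.6 CPM in A and D and 2.47 and 7.48 CPM in B, so that wild type A lay close to the B library of 35S:NPC48. Its log2 difference was -2.15 ± 0.48, and -2.85 without 35S:NPC48 B. Of the 45 shoot markers in the files, 7 and 6 had 0 counts in the B libraries of wild type and 35S:NPC48, and 8 and 8 in wild type A and 35S:NPC48 D. Markers of shoot tissue thus varied among A and D as well, and their part in the lists lower in B was not tested.

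Among abundant transcripts, the genes whose share of counts differed most between B and the others after ANNAT1 were PYK10 (AT3G09260), a beta-glucosidase of endoplasmic reticulum bodies, the phosphate-starvation transcript AT5G03545, the extensin gene EXT3 (AT1G21310), DOX1, an alpha-dioxygenase, and the polyubiquitin gene UBQ3 (AT5G03240). PYK10 stood at 6565, 7700.0, 7146 and 10042 CPM in A and D and 9477 and 11366 CPM in B, a log2 difference of 0.41 ± 0.18, which is short of 2-fold. EXT3 stood at 2886, 4249, 3645 and 3929 CPM in A and D and 5075 and 6817 CPM in B. UBQ3 stood at 2776, 2754, 4352 and 4089 CPM in A and D and 1761 and 2392 CPM in B, lower in B by less than 2-fold and without overlap. Of all 19608 genes, 4134 were lower in B without overlap, whatever the size of the difference.

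Of all 833 genes higher in B, 806 lay outside the classic phosphate list and 573 in none of the 93 lists. Genes that respond to phosphate may be among the 806. Of the 582 lower genes, 431 lay in no list. No member met the rule in 11 lists, and members met it in both directions in 51. In 9 lists the median log2 difference was above 0.5, and in 3 it was below -0.5.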

How the data were processed

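Root RNA of 6 libraries was sequenced. Per the submitters' processing notes, tools named were Trimmomatic 0.36, STAR 2.5.2b and featureCounts of Subread 1.6.5, on build TAIR10. Which annotation release and strand setting were used, and how reads shared by near-identical genes were treated, is not given in the sources used here. The deposited values are read counts by gene ID, not normalized, in 1 file per library, and 0 count columns were left unused. Because reads of near-identical copies or overlapping genes could be split, values of such genes (FRO4 and FRO5, LSU genes, CYP71A12) are uncertain. Symbols and products came from RefSeq, which annotated 28494 of 29613 IDs.

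The counts were analysed in R 4.3.3. edgeR 4.0.16 gave the main fits, and DESeq2 1.42.0 and limma 3.58.1 the alternatives. Genes passed edgeR's filterByExpr (minimum count 10, minimum total 15), and CPM and fits used TMM scaling. Log2 differences came from quasi-likelihood fits of genotype and B over all 6 libraries. Each standard error was the size of the log2 difference divided by the square root of its F statistic. This is an approximation and can be too small for genes with few counts on a side. The interaction (6 libraries) and D against A (4 libraries) were tested in edgeR with Benjamini-Hochberg adjustment over all genes tested. Standard errors and p-values cover only the spread among these libraries, and that spread may be technical. The scripts were tested on simulated data. Deviations of libraries with the same letter from their genotype means had correlations of 0.528 for A, 0.83 for B and 0.368 for D. These means include B, so a shift of B shared by both genotypes makes the values of A and D positive by itself. Whether the letters pair the libraries of A and D across genotypes was not tested.

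B, the gene lists and the tests were chosen with earlier results of these data known. List members were matched by symbol, synonym or product name in the annotation, so genes without such a name are not counted. Genes named were the 12 largest differences each way, up to 3 members each way of each list, up to 6 of the interaction test, the 6 largest differences in share of counts and regulators beyond a log2 difference of 2; other members named to complete a list (such as CCH, ZIP2 and APR1), and the selection within these, were chosen after values were seen. Alternatives were other scaling, no filter, DESeq2, limma-voom, a replicate block, other thresholds and leaving out each library.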

Additional observations from a re-analysis of the deposited data

Results flagged for a closer look

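In 3 genes wild type B lay below both other wild type libraries, and 35S:NPC48 B lay above both other 35S:NPC48 libraries. The noncoding RNA gene AT1G15405 stood at 2.84 CPM in wild type B against 3.65 and 10.9 CPM, and at 21.5 CPM in 35S:NPC48 B against 3.84 and 5.55 CPM, an interaction of 3.52 on the log2 scale. IMS2 stood at 127 CPM in wild type B against 134 and 151 CPM in A and D, and at 154 CPM in 35S:NPC48 B against 72.8 and 68.1 CPM, an interaction of 1.28. IRT1 stood at 35.6 CPM in wild type B against 44.7 and 50.3 CPM, and at 118 CPM in 35S:NPC48 B against 63.7 and 71.7 CPM, an interaction of 1.21. The difference was tested as an interaction in edgeR with an adjusted p of 1 for each gene, and each genotype had 1 library of B. Without wild type A the adjusted p of AT1G15405 was 3.932e-05.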

How the results depend on the processing

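The number of genes higher in replicate B, 833, was 831 with DESeq2's size factors, 835 with DESeq2, 843 with limma-voom, 877 without the condition on overlap, 1364 with no filter on low counts and 217 at 4-fold. Leaving out 1 library gave 913 to 1040, of which 709 to 774 were among the 833. The number of genes lower in replicate B, 582, was 582, 586, 573, 671, 720 and 111 in the same order, and 632 to 807 without 1 library, of which 488 to 551 were among the 582. Without 1 library the filter on low counts asked for 2 libraries in place of 3, and overlap was judged over fewer libraries. With no filter, or without 1 library of A or D, the median log2 difference of the classic phosphate genes, 2.5, was 3.96 to 4.1 and that of the purple acid phosphatases, 0.22, was 1.55 to 1.89. Without 1 library of B they were 2.52 to 2.54 and 0.25 to 0.26. With the replicate letter as a replicate block, 862 genes were higher and 574 lower, and 0 passed the test of D against A; an interaction could not be fitted with the block. Other scaling shifted the median of all genes by 0.001.

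For the interaction, edgeR called 0 genes with DESeq2's size factors (173 at an unadjusted p under 0.05) and 0 with no filter (270), limma-voom called 0 (179), DESeq2 called 1 (67), and leaving out 1 library of A or D gave 0 to 14 with edgeR. For D against A, DESeq2's size factors gave 188, DESeq2 39, and no filter 0 (1616 at an unadjusted p under 0.05); without 1 of these 4 libraries no residual degrees of freedom were left and no value was computed. The cause of these changes was not tested. Of 1674 alternative counts for the lists, 1451 were within 1.5 times the value given. Of 2840 alternative log2 differences of named genes, 2390 moved by less than 1 SE and 8 changed sign. The 8 belonged to 4 genes of the interaction test that did not meet the rule for B (AT1G15405, IPMI2, IMS2 and IRT1), in wild type alone and without 35S:NPC48 B. The shallow library, 35S:NPC48 A, limits the precision of genes with low counts, for which the log2 difference depends on few reads.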
